A study of Mus musculus with 34 samples.

Results

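The binding of ATF3 in thioglycollate elicited macrophages (TGEMs) of C57BL/6 mice was compared between cells treated with vehicle (Veh, PBS) and cells treated with the TLR4 agonist Kdo2 lipid A (KLA). The members are the loci formed from the 2 ATF3 peak lists of this strain, out of the 34 samples of the series. Peaks of the KLA list and of the Veh list that overlapped by at least 1 bp were taken as 1 locus, which gave 41097 loci. Of these, 17946 held only a KLA peak (KLA-only), 18782 held a peak in both lists (shared) and 4369 held only a Veh peak (Veh-only). Both groups are male mice of 8 weeks, whose macrophages were collected 3 days after an injection of thioglycollate. The cells then received PBS, or KLA at 100 ng/mL during 1 h, and were crosslinked for ChIP-seq with the same ATF3 antibody. The labels give the genotype as C57Bl/6EiJ and the methods as C57Bl/6J. Lists not used to form the classes came from BALB/cJ TGEMs of the same age and sex with ATF3 in Veh and KLA, and from PPARγ knockout TGEMs with ATF3 in Veh. The sources used here do not say how the PPARγ gene was deleted in these mice.

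ATF3 is a basic leucine zipper protein that binds DNA only as a dimer, with itself or with partners such as Jun, JunD and JunB, and also with members of the CEBP and ATF families. AP-1 dimers read the TRE, CREB and ATF dimers read the CRE, and an ATF paired with a CEBP reads a composite of both elements. In macrophages these dimers bind next to PU.1 and CEBPα, the factors that open lineage enhancers, and TLR4 signalling brings NF-kB to a further set of sites. The Atf3 gene is itself induced by TLR4 ligands and by stress, and ATF3 is known as a regulator of inflammatory genes.

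The sequences below show the central 200 bp of the strongest loci of each class, chosen by the rule that named them, so that the sites can be read beside the values that follow. Positions are those of mm10 on the plus strand, read from the GRCm38 sequence of RefSeq. Capitals mark matches to the motifs described further on, and a window with no capitals has none of them.

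The first 4 KLA-only loci by KLA count were the following.

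Nav1, chr1:135594099-135594298: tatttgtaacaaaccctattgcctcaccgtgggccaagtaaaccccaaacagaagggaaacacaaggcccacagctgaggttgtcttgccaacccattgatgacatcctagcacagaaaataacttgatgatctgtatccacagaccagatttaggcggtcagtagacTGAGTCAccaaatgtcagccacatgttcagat
Fos, chr12:85513703-85513902: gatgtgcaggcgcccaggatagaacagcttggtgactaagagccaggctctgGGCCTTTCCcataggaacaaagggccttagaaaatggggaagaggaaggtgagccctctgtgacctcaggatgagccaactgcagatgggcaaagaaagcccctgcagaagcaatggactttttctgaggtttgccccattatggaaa
Lilr4b, chr10:51416683-51416882: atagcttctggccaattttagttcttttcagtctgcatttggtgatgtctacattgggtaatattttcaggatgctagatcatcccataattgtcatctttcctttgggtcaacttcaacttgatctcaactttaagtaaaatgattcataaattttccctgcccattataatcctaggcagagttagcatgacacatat
Popdc2, chr16:38394169-38394368: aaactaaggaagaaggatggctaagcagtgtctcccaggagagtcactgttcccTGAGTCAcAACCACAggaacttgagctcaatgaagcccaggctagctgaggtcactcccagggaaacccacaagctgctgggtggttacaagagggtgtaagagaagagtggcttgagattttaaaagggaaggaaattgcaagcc

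The first 4 Veh-only loci by Veh count were the following.

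Hlx, chr1:184617923-184618122: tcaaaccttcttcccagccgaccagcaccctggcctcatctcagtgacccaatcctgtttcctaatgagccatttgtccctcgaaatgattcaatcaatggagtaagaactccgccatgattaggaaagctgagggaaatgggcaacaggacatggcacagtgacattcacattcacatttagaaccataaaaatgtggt
Serpinb2, chr1:107496894-107497093: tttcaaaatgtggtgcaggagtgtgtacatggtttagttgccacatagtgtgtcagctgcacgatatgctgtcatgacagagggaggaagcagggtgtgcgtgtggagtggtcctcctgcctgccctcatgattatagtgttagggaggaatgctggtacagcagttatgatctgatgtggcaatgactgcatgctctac
Popdc2, chr16:38394436-38394635: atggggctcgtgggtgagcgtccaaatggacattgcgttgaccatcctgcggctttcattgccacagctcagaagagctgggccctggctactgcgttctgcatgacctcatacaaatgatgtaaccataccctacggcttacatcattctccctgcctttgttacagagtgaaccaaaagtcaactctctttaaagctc
Ier3, chr17:35777082-35777281: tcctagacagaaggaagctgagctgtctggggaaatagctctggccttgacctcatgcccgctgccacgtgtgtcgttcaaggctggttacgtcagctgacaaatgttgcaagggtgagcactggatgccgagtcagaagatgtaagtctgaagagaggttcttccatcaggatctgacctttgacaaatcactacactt

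The shared loci whose rank rose most with KLA, followed by those whose rank fell most, were the following.

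rising, Rab11fip4, chr11:79611156-79611355: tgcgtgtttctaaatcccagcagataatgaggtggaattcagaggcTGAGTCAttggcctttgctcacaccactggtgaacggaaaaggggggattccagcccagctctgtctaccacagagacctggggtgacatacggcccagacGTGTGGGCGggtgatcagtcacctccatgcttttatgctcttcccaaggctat
rising, Mark2, chr19:7335819-7336018: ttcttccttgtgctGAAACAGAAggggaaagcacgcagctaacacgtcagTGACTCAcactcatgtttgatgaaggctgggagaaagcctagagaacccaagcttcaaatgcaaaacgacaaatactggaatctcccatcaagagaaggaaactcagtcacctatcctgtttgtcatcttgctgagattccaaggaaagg
falling, Olfr1423, chr19:12025534-12025733: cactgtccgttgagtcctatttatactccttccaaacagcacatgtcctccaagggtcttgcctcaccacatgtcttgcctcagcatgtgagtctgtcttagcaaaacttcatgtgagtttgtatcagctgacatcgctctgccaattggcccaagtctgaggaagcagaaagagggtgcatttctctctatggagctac
falling, Fbxw7, chr3:84748166-84748365: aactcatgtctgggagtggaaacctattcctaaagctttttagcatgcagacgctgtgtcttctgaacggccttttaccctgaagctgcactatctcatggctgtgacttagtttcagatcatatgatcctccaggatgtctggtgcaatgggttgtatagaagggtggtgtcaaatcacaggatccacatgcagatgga

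Of the KLA-only and rising windows, 4 held the TRE (TGAGTCA or TGACTCA) and 1 held an NF-kB site (GGNNTTTCC). The Veh-only and falling windows held none of the listed motifs. The KLA-only window at Popdc2 and the Veh-only window at Popdc2 come from neighbouring peaks, which are taken up with the named loci.

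The KLA list was longer, with 36745 peaks against 23160 in the Veh list. Its counts summed to 3537782, with a median of 74 per peak (range 31 to 489), while the Veh counts summed to 1668345, with a median of 56 (range 25 to 409). Counts are not scaled to library size, so strength was taken only as the percentile rank of a locus within its own list, in which 100 is the strongest. The IDR combined the replicates of each treatment into 1 list (no replicates), so no test between treatments could be run. Differences between classes are given with 95% Newcombe intervals and percentages with 95% Wilson intervals, which cover counting error over loci only. Neighbouring loci are not independent, and no interval covers variation between mice or libraries.

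KLA-only loci made up 43.7% of all loci (43.2 to 44.1), shared loci 45.7% (45.2 to 46.2) and Veh-only loci 10.6% (10.3 to 10.9). The shared loci were the strong ones in both lists, with a median percentile of 68.3 in the KLA list and 57.6 in the Veh list. KLA-only loci had a median percentile of 32.6 and a median KLA count of 57, with quartiles at 44 and 79. Veh-only loci had a median percentile of 20.4 and a median Veh count of 37, with quartiles at 32 and 47. Each list was cut into deciles by count, with decile 10 the strongest. In the weakest decile of the KLA list 84.2% of loci were absent from the Veh list, and in the strongest decile 7.27%. In the Veh list the same values were 49.6% and 0.74%. Of the 100 strongest KLA loci 2 were KLA-only, and of the 100 strongest Veh loci 1 was Veh-only. Loci absent from the other list were thus mostly in the lower part of their own list.

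**Figure D1:**
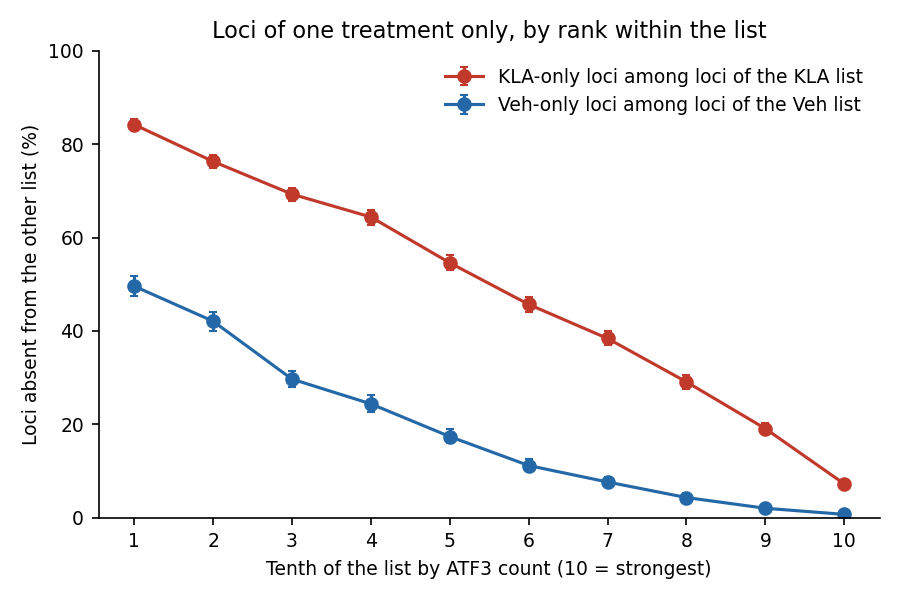
Share of loci absent from the other treatment's ATF3 list (%, y axis) by decile of the list in order of ATF3 count (x axis, 10 = strongest), for the KLA list (red) and the Veh list (blue), with 95% Wilson intervals. Both shares fall from the weakest to the strongest decile, from 84.2% to 7.27% in the KLA list and from 49.6% to 0.74% in the Veh list.

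When the KLA list was shortened to the strongest 23160 peaks, so that both lists had the same length, there were 7805 KLA-only, 15344 shared and 7809 Veh-only loci. Lists of the same length give nearly the same number of KLA-only and Veh-only loci by construction, so these numbers show the overlap only and not whether more sites were gained than lost. When only loci of the strongest 50% of their own list were set against the whole of the other list, 5112 KLA-only and 589 Veh-only loci remained. Some loci of 1 treatment lay beside a peak of the other. A Veh peak stood within 500 bp of 9.36% of KLA-only loci (8.94 to 9.8), and a KLA peak within 500 bp of 16.8% of Veh-only loci (15.7 to 17.9).

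The classes differed in ATF3 lists that had no part in forming them. A BALB/cJ KLA peak stood at 63.2% of KLA-only loci, 89% of shared loci and 34.8% of Veh-only loci. A BALB/cJ Veh peak stood at 13.7%, 69.4% and 35.2%. KLA-only loci had a BALB/cJ KLA peak more often than Veh-only loci by 28.5 percentage points (26.9 to 30), and Veh-only loci had a BALB/cJ Veh peak more often than KLA-only loci by 21.5 points (20 to 23). The Veh list of the PPARγ knockout held a peak at 23.7% of KLA-only loci, 83.2% of shared loci and 56.2% of Veh-only loci, so that Veh-only exceeded KLA-only by 32.5 points (30.9 to 34.1).

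The exact class was kept less often than this. Of KLA-only loci, 52.6% were also KLA-only in BALB/cJ, 10.7% had both BALB/cJ peaks, 3.04% had only the Veh peak and 33.7% had neither. Of Veh-only loci, 18.9% were also Veh-only in BALB/cJ, 16.3% had both peaks, 18.5% had only the KLA peak and 46.3% had neither. Agreement followed strength. In the weakest decile of the KLA list 31.8% of KLA-only loci had a BALB/cJ KLA peak, and in the strongest decile 95.5%. Veh-only loci had a BALB/cJ Veh peak in 17.4% of cases in the weakest decile of the Veh list and in 91.7% of cases in decile 9. A Veh peak in BALB/cJ or in the knockout was present at 30.3% of KLA-only loci (29.6 to 30.9).

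Most loci of every class lay far from promoters. The median distance from the centre of a locus to the nearest TSS of a protein-coding gene was 17626 bp for KLA-only, 17721 bp for shared and 14189 bp for Veh-only loci. Promoters, taken as 1 kb to either side of a TSS, held 12.4% of KLA-only loci (11.9 to 12.9), 12.7% of shared loci (12.2 to 13.2) and 23.2% of Veh-only loci (22 to 24.5). Veh-only loci were at promoters more often than KLA-only loci by 10.8 points (9.48 to 12.2), and by 8.44 points (7.12 to 9.77) when both were compared within deciles of the list rank. KLA-only and shared loci differed by less than the interval (12.4% against 12.7%, difference -0.315 points, -0.992 to 0.364), although shared loci exceeded KLA-only loci by 5.62 points (4.61 to 6.63) at equal KLA rank. The promoter excess of Veh-only over KLA-only loci was not found in BALB/cJ. In that strain the promoter share was 17.7% for KLA-only and 15.1% for Veh-only loci, and KLA-only loci of C57BL/6 that kept their class in BALB/cJ differed from such Veh-only loci by -1.7 points (-4.35 to 0.646). The excess of Veh-only over shared loci was 3.12 points (0.807 to 5.74) in loci that kept their class, and in loci formed from the BALB/cJ lists the shares were 15.1% and 13.1%.

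Away from promoters, introns held 46.1% of KLA-only, 45.6% of shared and 41.1% of Veh-only loci, and intergenic sequence 39.1%, 39.5% and 33.1%. Coding exons held 0.981%, 0.841% and 0.985%, and 3′ UTRs 1.28%, 1.25% and 1.47%. Neither of these exon classes differed beyond the intervals. The band from 1 to 5 kb from a TSS held 14.6% of KLA-only and 10.9% of Veh-only loci, a difference of 3.66 points (2.57 to 4.69). The median GC content of the central 200 bp was 46.5% at KLA-only, 47.5% at shared and 49% at Veh-only loci. A shared locus lay within 10 kb of 50.6% of KLA-only loci (49.9 to 51.4) and of 50.3% of Veh-only loci (48.8 to 51.8), and another KLA-only locus lay within 10 kb of 53% of KLA-only loci. The share of KLA-only loci was between 40.2% and 47.1% on every autosome and was 52.2% on the X chromosome.

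KLA-only loci were joined mostly by monomers that were listed there only after KLA. JunD, a broadly present Jun protein, had a KLA peak at 63.1% of KLA-only loci and a Veh peak at 11.3%. Fos, an immediate-early partner of the Jun proteins, had a KLA peak at 46.3% of them, and Jun at 28.5%. JunB and FosL2, which are also induced partners, had KLA peaks at 21.7% and 16.2%. Any of these 5 monomers had a KLA peak at 72.1% of KLA-only loci (71.4 to 72.8) and a Veh peak at 17.6% (17.1 to 18.2).

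Veh-only loci showed the opposite for JunD, Jun and FosL2, but not for Fos and JunB. JunD had a Veh peak at 36.4% of Veh-only loci and a KLA peak at 20%, and Jun had a Veh peak at 23.6% and a KLA peak at 5.73%. FosL2 had a Veh peak at 6.69% of Veh-only loci and a KLA peak at 2.57%. Fos had a Veh peak at 2.59% and a KLA peak at 9.94%, and JunB at 0.183% and 3.34%. Any of the 5 monomers had a Veh peak at 47.6% of Veh-only loci (46.2 to 49.1) and a KLA peak at 27.2% (25.9 to 28.5). KLA-only loci had a KLA peak more often than Veh-only loci by 43 points for JunD (41.6 to 44.4), by 36.4 points for Fos (35.2 to 37.5) and by 22.8 points for Jun (21.8 to 23.7). Veh-only loci had a Veh peak more often than KLA-only loci by 25.1 points for JunD (23.6 to 26.6) and by 14.8 points for Jun (13.5 to 16.2).

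The number of monomers beside ATF3 followed the same order. After KLA, 4 or 5 others were listed at 10.9% and 6.12% of KLA-only loci and at 21% and 25.2% of shared loci, against 0.825% and 0.298% of Veh-only loci. No other monomer was listed in KLA at 27.9% of KLA-only and 72.8% of Veh-only loci. The lists differ in length and depth, with 31640 JunD peaks in KLA and 19653 in Veh, whose counts summed to 10395306 and 1178031, and 24365 Fos peaks in KLA and 1804 in Veh. The JunB list in Veh had 463 peaks. These differences move with the treatment, and their part in the shares was not tested. Comparisons of classes within 1 list, as above, use the same list for each class, but the size of a difference in points can still vary with the length of that list.

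At equal KLA rank the differences between KLA-only and shared loci in the AP-1 monomers in KLA were small, while those in PU.1 and CEBPα in KLA remained, at -14.4 points (-15.7 to -13.1) and -12.6 points (-13.7 to -11.5). For the monomers the differences, KLA-only minus shared, went from -22.8 to -1.75 points for JunD and from -32.3 to -1.5 points for Jun. For Fos the difference turned from -24.3 to 3.29 points (2.19 to 4.39), and for FosL2 it went from -20.7 to 0.338 points (-0.42 to 1.1).

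**Figure D2:**
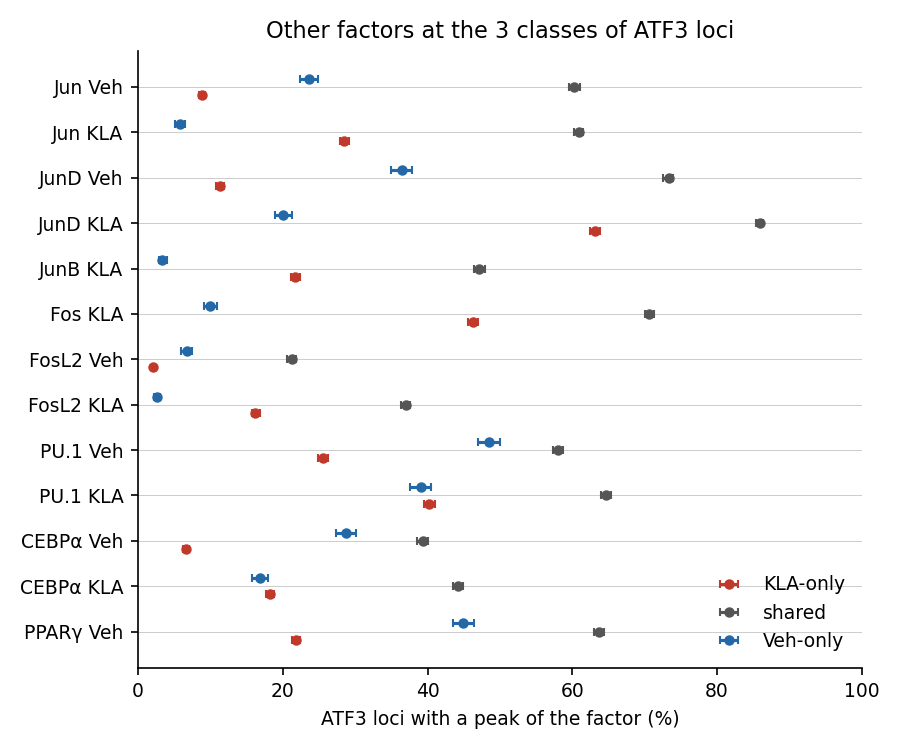
Share of ATF3 loci (%, x axis) at which the named factor was listed in the named treatment (rows), for KLA-only (red), shared (grey) and Veh-only (blue) loci, with 95% Wilson intervals. Shared loci are highest in every row, KLA-only loci exceed Veh-only loci for AP-1 monomers in KLA, and Veh-only loci exceed KLA-only loci in every Veh row.

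PU.1, the lineage factor of macrophages, was present before treatment at fewer of the KLA-only loci than of the others. A PU.1 peak was listed in Veh at 25.6% of KLA-only loci (24.9 to 26.2), 48.5% of Veh-only loci (47 to 50) and 58% of shared loci (57.3 to 58.7). After KLA, the shares were 40.2%, 39.1% and 64.7%. PU.1 was listed only after KLA at 17% of KLA-only loci and only in Veh at 2.35%, while at Veh-only loci it was listed only after KLA at 3.41% and only in Veh at 12.8%. PU.1 in Veh was more frequent at Veh-only than at KLA-only loci by 22.9 points (21.3 to 24.5), whereas PU.1 in KLA differed by 1.19 points between KLA-only and Veh-only loci (-0.43 to 2.8), and by 4.13 points with lists of equal length.

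Among KLA-only loci, PU.1 in KLA went with the strength of ATF3 and PU.1 in Veh did not. From the weakest to the strongest decile of the KLA list, the share of KLA-only loci with PU.1 in KLA rose from 31.1% to 71.7%, while the share with PU.1 in Veh lay between 22.6% and 27.6% in every decile. The PU.1 lists had 40645 peaks in KLA and 41573 in Veh, with counts that summed to 3342808 and 13809143. The part of this difference in the shares was not tested.

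CEBPα, which pairs with PU.1 at enhancers and can dimerise with ATF proteins, had the same order. It was listed in Veh at 6.59% of KLA-only, 28.7% of Veh-only and 39.3% of shared loci, and in KLA at 18.2%, 16.9% and 44.2%. It was listed only after KLA at 12.9% of KLA-only loci and 2.73% of Veh-only loci, and only in Veh at 1.28% and 14.6%. CEBPα in Veh was more frequent at Veh-only than at KLA-only loci by 22.2 points (20.8 to 23.6). CEBPα in KLA was more frequent at KLA-only loci by 1.36 points (0.0869 to 2.58), but at equal rank it was more frequent at Veh-only loci by 2.04 points (0.551 to 3.53). At equal rank CEBPα in Veh was also more frequent at Veh-only than at shared loci, by 6.52 points (5 to 8.05), while the plain difference was 10.5 points the other way (9 to 12). Among KLA-only loci the share with CEBPα in KLA rose from 8.24% in the weakest to 55.1% in the strongest decile, and that with CEBPα in Veh from 5.14% to 7.55%. Among Veh-only loci the share with CEBPα in Veh rose from 16.9% in the weakest decile to 66.7% in decile 9 and 94.1% in decile 10 (16 of 17).

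PPARγ, a nuclear receptor of lipid metabolism with a list in Veh, had a peak at 21.8% of KLA-only, 44.9% of Veh-only and 63.7% of shared loci. PU.1, CEBPα or PPARγ was listed in Veh at 38.9% of KLA-only loci, 74.9% of Veh-only loci and 85.2% of shared loci. None of these 3 factors and none of the 5 monomers was listed in Veh at 56.3% of KLA-only loci (55.6 to 57), 18.9% of Veh-only loci (17.8 to 20.1) and 6.31% of shared loci (5.97 to 6.67).

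The motifs were searched on both strands in the central 200 bp and compared with 52940 windows of that length taken every 50 kb along the genome. These windows were not matched for GC content. Their median was 41.5%, against 46.5% at KLA-only, 47.5% at shared and 49% at Veh-only loci. The part of this difference in the motif shares was not tested. The TRE was in 29.8% of KLA-only loci (29.2 to 30.5), 33.3% of shared loci (32.6 to 34), 9.41% of Veh-only loci (8.58 to 10.3) and 3.03% of genome windows. The CRE (TGACGTCA) was in 1.33%, 2.16%, 1.35% and 0.121%. The NF-kB motif (GGNNTTTCC) was in 12.2% of KLA-only loci (11.8 to 12.7), 5.03% of shared loci (4.72 to 5.35), 1.92% of Veh-only loci (1.56 to 2.38) and 2.8% of genome windows. The composite of an ATF and a CEBP element (TGATGCAA) had the reverse order, with 1.32% of KLA-only loci (1.16 to 1.49), 3.76% of shared loci (3.5 to 4.05), 6.64% of Veh-only loci (5.94 to 7.42) and 0.599% of genome windows.

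KLA-only loci thus held the TRE more often than Veh-only loci by 20.4 points (19.3 to 21.5) and the NF-kB motif by 10.3 points (9.65 to 10.9). Veh-only loci held the composite more often by 5.33 points (4.6 to 6.12). None of these differences changed direction at equal list length, where they were 20.8, 13.9 and -4.78 points for KLA-only minus Veh-only. In loci that kept their class in BALB/cJ they were 25.8, 12.9 and -10.4 points, and in loci formed from the BALB/cJ lists alone they were 16.5, 7.78 and -6.33 points. The TRE was more frequent at shared than at KLA-only loci by 3.43 points (2.48 to 4.38), but at equal KLA rank it was more frequent at KLA-only loci by 8.1 points (7.06 to 9.14).

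The motif of PU.1 (ACTTCCT) was in 16.1% of KLA-only, 21.6% of shared and 21.3% of Veh-only loci, and in 4.67% of genome windows. The CEBP motif (TTGCNNAA) was in 13.8%, 19.6% and 19%, and in 9.69% of genome windows. Both were more frequent at Veh-only than at KLA-only loci, by 5.12 points (3.81 to 6.47) for PU.1 and by 5.2 points (3.95 to 6.49) for CEBP. The interferon response motif (GAAANNGAA) was in 10.2%, 8.09% and 7.05%, against 8.02% of genome windows, so that shared loci were close to that background and Veh-only loci below it. The Runx motif (TGTGGTT) was in 6.89%, 7.58% and 7.38%, and KLA-only and Veh-only loci did not differ beyond the interval (-0.487 points, -1.38 to 0.344).

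The GC box and the E-box, which are more frequent in promoters than in the genome, were most frequent at Veh-only loci. The GC box (CCCCGCCC) was in 2.57% of KLA-only, 3.41% of shared and 6.85% of Veh-only loci, 0.51% of genome windows and 15.1% of 32805 promoter windows. The E-box (TCACGTG) was in 1.92%, 3.08% and 4.74%, 0.774% of genome windows and 2.83% of promoter windows. Among loci over 3 kb from a TSS the GC box difference between KLA-only and Veh-only loci was within its interval of 0 (-0.0899 points, -0.607 to 0.327), and in loci formed from the BALB/cJ lists it was more frequent at KLA-only loci by 1.09 points (0.387 to 1.7). The E-box kept its direction in both, with -1.86 points (-2.58 to -1.24) over 3 kb from a TSS and -1.04 points (-1.73 to -0.437) in BALB/cJ, for KLA-only minus Veh-only. The Egr motif (GNGTGGGCG) was in 0.869%, 0.884% and 1.15%. Some motifs share letters, so that their sites can overlap. Overlapping sites were found at 58 of 91 loci with both the GC box and the Egr motif, 40 of 213 with the TRE and the E-box, 14 of 89 with the NF-kB motif and the GC box, 94 of 714 with the PU.1 and interferon response motifs, 103 of 1713 with the TRE and the PU.1 motif and 0 of 764 with the TRE and the NF-kB motif.

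**Figure D3:**
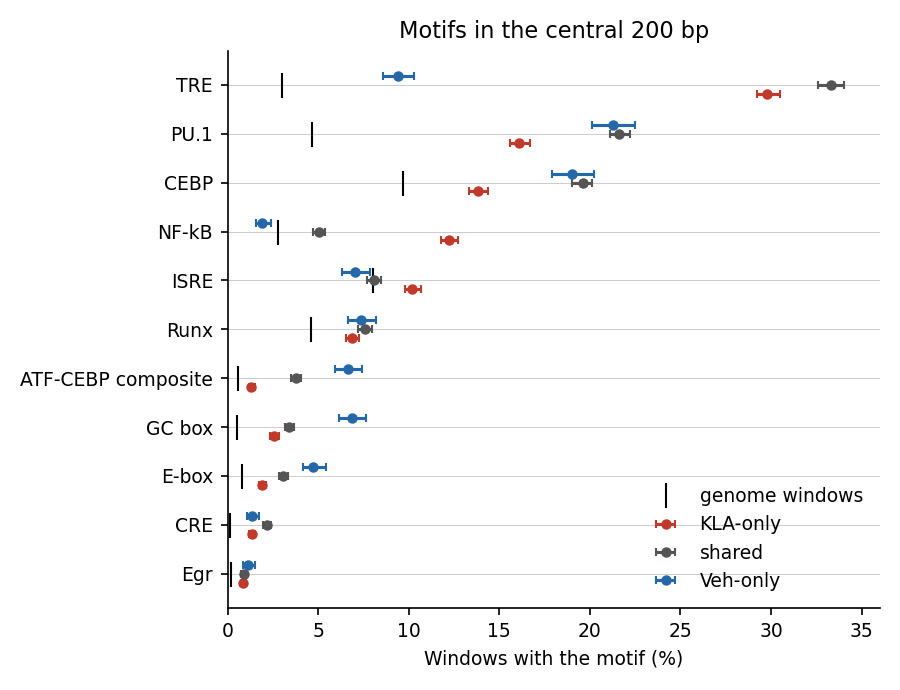
Share of windows of 200 bp (%, x axis) with the named motif (rows) at KLA-only (red), shared (grey) and Veh-only (blue) ATF3 loci, with 95% Wilson intervals, and in genome windows every 50 kb (black bars). KLA-only loci are highest for the NF-kB and interferon response motifs, Veh-only loci for the ATF-CEBP composite, the GC box and the E-box, and the TRE is low only in Veh-only loci.

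All 8-mers, strands joined, were also compared without a list of motifs. The 5 with the largest excess at KLA-only over Veh-only loci were versions of the TRE with 1 flanking base, led by ATGACTCA with 10.5% against 2.61% and ATGAGTCA with 10.1% against 2.89%. On the Veh-only side, TGATGCAA led with 6.64% against 1.32%. It was followed by GCCCCGCC, CCCCGCCC and CCCGCCCC, which are overlapping forms of the GC box, and by TGATGAAA, with 5.13% at Veh-only loci, 3.09% at shared loci, 1.62% at KLA-only loci and 1.28% of genome windows.

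The NF-kB motif went with the strength of KLA-only loci. It was in 8.85% of KLA-only loci of the weakest decile and in 30.2% of those of the strongest decile, and the TRE rose from 24.9% to 40%. KLA-only loci with the NF-kB motif had PU.1 in KLA at 48.6% (46.5 to 50.7), against 39.1% of those without (38.3 to 39.8). They had Fos in KLA at 59.9% against 44.4%, and CEBPα in KLA at 25.4% against 17.2%, but CEBPα in Veh at 3.92% against 6.97%. KLA-only loci with the TRE had PU.1 in KLA at 24.7% and those without it at 46.8%, and Fos at 61.1% and 40%. Loci with and without a motif were not compared at equal KLA rank. From the weakest to the strongest decile, Fos in KLA itself rose from 14.6% to 98.5% of KLA-only loci. The TRE and the NF-kB motif were found together in 2.54% of KLA-only loci, 1.63% of shared loci and 0.0687% of Veh-only loci, which is 3 of 4366.

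Loci with the ATF-CEBP composite had Fos and JunD in KLA less often than loci without it. The composite was not compared with the monomers in Veh, and loci with and without it were not compared at equal rank. At shared loci with the composite Fos was listed in KLA at 44.6% and JunD at 64.8%. Without it the shares were 71.6% and 86.7%. CEBPα was listed in Veh at 65.3% of shared loci with the composite and 38.3% of those without. The other classes showed no clear difference in CEBPα in Veh. It was at 32.1% (27 to 37.6) against 28.5% (27.1 to 29.9) of Veh-only loci, and 8.05% (5.21 to 12.2) against 6.57% (6.22 to 6.95) of KLA-only loci. At Veh-only loci with the composite Fos was listed in KLA at 0 of 290, which allows a share of up to 1.03% when 3 counts are taken as the limit of a count of 0, against 10.6% of those without it. JunD was listed in KLA at 2.76% of Veh-only loci with the composite (1.4 to 5.35) and at 21.2% of those without (20 to 22.5). Among Veh-only loci the composite rose from 4.39% in the weakest to 18.8% in decile 9 of the Veh list (9 of 48), and was 11.8% in decile 10 (2 of 17).

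Shared loci also changed their order. The ranks in KLA and in Veh had a Spearman correlation of 0.64 over 18782 shared loci, a description over loci of the same 2 lists. Within the whole lists the percentile rose with KLA at 12054 shared loci and fell at 6728, in a KLA list whose weaker end holds mostly KLA-only loci. When the shared loci were ranked only among themselves, 2596 rose by over 25 percentile points (13.8%) and 2553 fell by over 25 points (13.6%).

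The loci that rose and those that fell differed as the KLA-only and Veh-only classes did. From the decile of shared loci that fell most to the decile that rose most, the TRE went from 15.1% to 41%, the NF-kB motif from 1.81% to 12.5% and the composite from 12.8% to 1.38%. Fos in KLA went from 38% to 89.7% and Jun in KLA from 26.1% to 84.1%. The change contains the KLA rank, and these deciles were not compared at equal KLA rank. From the weakest to the strongest decile of the KLA list, shared loci had Fos in KLA at 12.4% to 97.9%. Over the same deciles the TRE went from 9.86% to 52.1%, the NF-kB motif from 1.87% to 8.16% and the composite from 7.82% to 3.35%. CEBPα in Veh went from 61.7% to 16.6%, CEBPα in KLA from 49.9% to 42.4%, PU.1 in Veh from 61.2% to 42.3% and PU.1 in KLA from 53.3% to 63.8%. Promoters made up 13.9% of the decile that fell most and 7.88% of the decile that rose most.

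**Figure D4:**
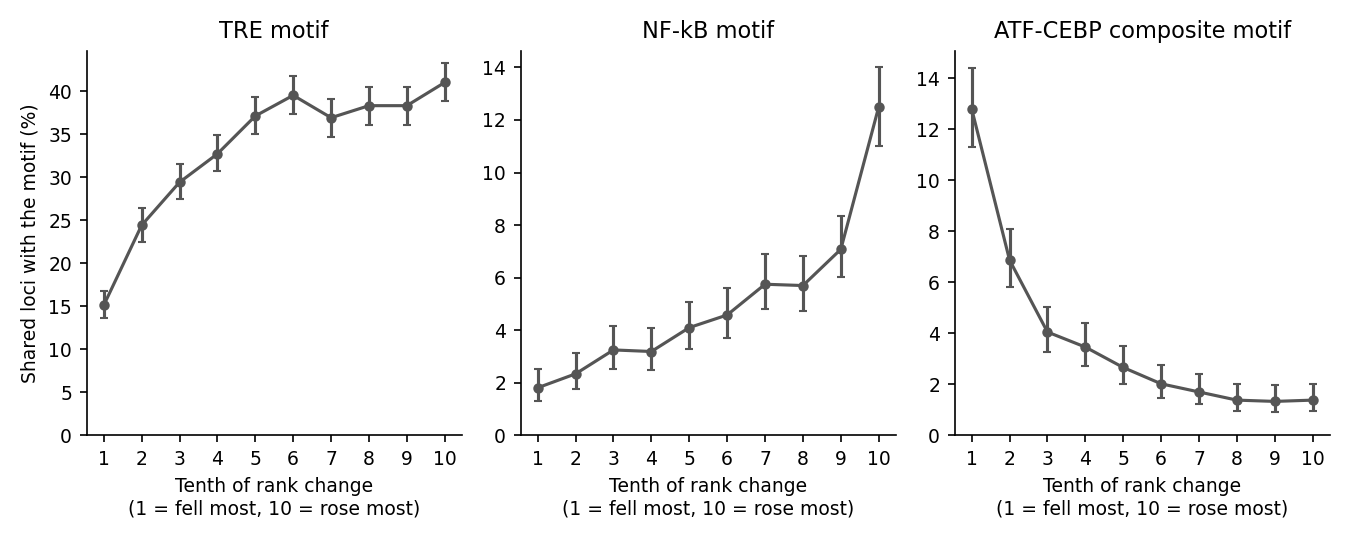
Share of shared ATF3 loci (%, y axis of each panel) with the TRE, NF-kB or ATF-CEBP composite motif, by decile of the change in percentile rank from Veh to KLA among shared loci (x axis, 1 = fell most, 10 = rose most), with 95% Wilson intervals. The TRE goes from 15.1% to 41%, the NF-kB motif from 1.81% to 12.5% and the composite from 12.8% to 1.38%. The deciles were not compared at equal KLA rank.

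The change in rank was found again in BALB/cJ, at the shared loci with peaks in both lists of that strain. There were 12279 such loci (65.4% of the shared loci), and the others were left out. In both strains the ranks were taken anew among these loci only, so the counts here are not those over all shared loci. Over these loci the change in C57BL/6 and the change in BALB/cJ had a Pearson correlation of 0.67 and a Spearman correlation of 0.61, a description across loci that share antibody and sequence. Of 1708 loci that rose by over 25 points in C57BL/6, 1468 rose in BALB/cJ (85.9%), with a median of 26.8 points. Of 1670 that fell by over 25 points, 1510 fell in BALB/cJ (90.4%), with a median of -26.9 points.

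**Figure D5:**
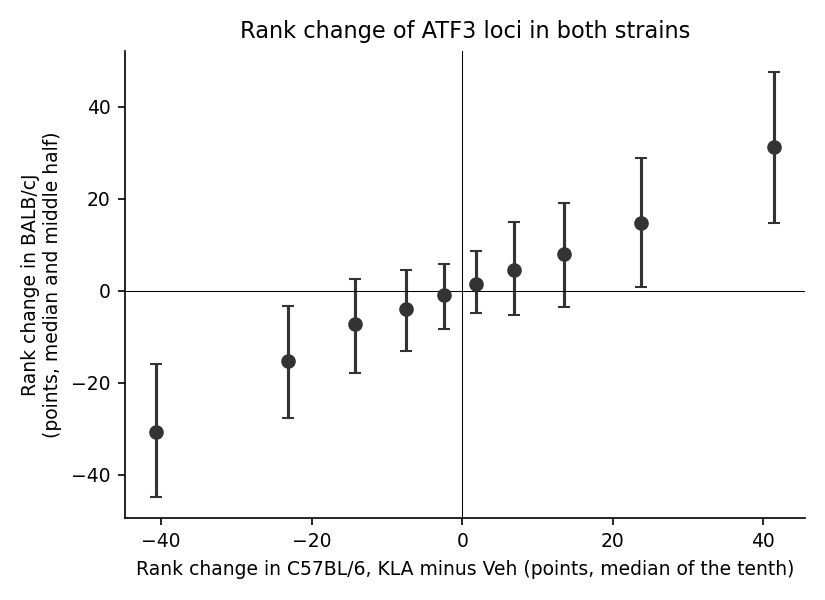
Change in percentile rank from Veh to KLA in BALB/cJ (y axis, points, median with bars from the lower to the upper quartile) against that in C57BL/6 (x axis, points, median), for deciles of 12279 loci with peaks in all 4 ATF3 lists. The BALB/cJ median goes from -30.8 points in the decile that fell most in C57BL/6 to 31.3 points in the decile that rose most. Ranks in both strains were taken among these loci only.

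The 10 KLA-only loci with the highest KLA count had counts from 310 to 431. The first, chr1:135594093-135594306 in an intron of Nav1, had the highest count of the class (431, percentile 100), and also stood at percentile 100 in the BALB/cJ Veh list and in the knockout Veh list. The second, at chr12:85513696-85513910, lay 39.9 kb downstream of the TSS of Fos, in intergenic sequence, with a count of 378. It held the NF-kB site shown above, and all 5 monomers, PU.1 and CEBPα were listed there in KLA and none of them in Veh. An ATF3 Veh peak stood there in BALB/cJ (percentile 33.8) and in the knockout (percentile 42.3). The locus in an intron of Cd44, which encodes a hyaluronan receptor, at chr2:102873367-102873582, had a count of 337 and held both the TRE and the NF-kB motif, and had a BALB/cJ peak only in KLA.

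The locus at chr1:155108549-155108762 lay 9.02 kb upstream of Ier5, an immediate-early gene, with a count of 319, and had no ATF3 Veh peak in BALB/cJ or the knockout. The locus at chr1:191193778-191194003, with a count of 310 and the TRE, lay in an intron of Atf3 itself, 10.6 kb upstream of the nearest TSS. Its PU.1 peak was listed in both treatments. Of these 10 loci, 8 had a BALB/cJ KLA peak, but 5 had a BALB/cJ Veh peak and 7 a knockout Veh peak, which are shares above those of the whole class.

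The 10 Veh-only loci with the highest Veh count had counts from 148 to 288. The first, at chr1:184617913-184618133, lay 115 kb downstream of Hlx with a count of 288 (percentile 99.7). It had a BALB/cJ Veh peak at percentile 98.8, no BALB/cJ KLA peak and none of the other factors in KLA. The locus at chr12:55488846-55489050, just beyond the end of Nfkbia, which encodes the NF-kB inhibitor IκBα, had a count of 154 and BALB/cJ and knockout peaks in Veh. The locus at chr17:35200491-35200704 in an intron of Tnf had a count of 148 and the TRE, and all 5 other monomers were listed there in KLA. All 10 had CEBPα in Veh and a BALB/cJ Veh peak, and 6 had a BALB/cJ KLA peak.

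Some of the strongest loci of 1 treatment lay beside a peak of the other treatment, or had one in another mouse line. The KLA-only locus at chr16:38394151-38394387 (count 346) and the Veh-only locus at chr16:38394420-38394653 (count 233), both 32 kb from Popdc2, lay within 500 bp of each other. Over the 100 strongest KLA-only loci, 17 had a Veh peak within 500 bp, 32 had a BALB/cJ Veh peak and 43 had a knockout Veh peak. Over the 100 strongest Veh-only loci, 33 had a KLA peak within 500 bp and 56 had a BALB/cJ KLA peak. Without the loci that had such a neighbour within 500 bp, the differences in motifs and factors between KLA-only and Veh-only loci kept their direction and their side of 0.

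The 5 shared loci that rose most went from percentiles of 0.546 to 6.53 in Veh to percentiles of 94.2 to 98.9 in KLA. They lay in introns of Rab11fip4 and Mark2, 15.4 kb upstream of Src, and 11 and 87.4 kb upstream of Bcl6, a transcriptional repressor of inflammatory genes. The locus at chr11:79611071-79611373 in Rab11fip4 had a Veh count of 28 and a KLA count of 316. Each of the 5 had PU.1 and all 5 other monomers in KLA and a BALB/cJ KLA peak.

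The 5 that fell most went from percentiles of 83.9 to 99.1 in Veh to percentiles of 1.15 to 13.8 in KLA. The locus at chr19:12025498-12025735, 11.1 kb downstream of Olfr1423, had a Veh count of 247 and a KLA count of 41. All 5 had CEBPα and PPARγ in Veh, and none had another monomer or PU.1 in KLA. The locus in N4bp2l1, at chr5:150583765-150584002, held the composite.

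By nearest TSS, the KLA-only loci belonged to 7002 genes and the Veh-only loci to 3152. The 5 genes nearest to the most KLA-only loci were Zeb2 (54 KLA-only, 28 shared, 1 Veh-only), Lpp (42, 41 and 6), Jarid2 (37, 26 and 3), Tnfaip3 (36, 14 and 0) and Cited2 (35, 16 and 3). Tnfaip3 encodes A20, an inhibitor of NF-kB signalling, and Zeb2 a transcription factor of macrophage identity. The median distance of the loci to the TSS was 56365 bp for Tnfaip3 and 326457 bp for Cited2, so wide intergenic space adds to these counts. The 5 genes nearest to the most Veh-only loci were Id2, Klf6 and Runx1 with 8 each, and Dnmt3a and Nars2 with 7 each. Id2 had 23 KLA-only loci, and Klf6 had 32, so 3 of these 5 genes had more KLA-only than Veh-only loci.

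Gene lists were read against all 21911 protein-coding genes, with 5 kb on each side of a gene. Of all genes, 30.5% had a KLA-only locus, 29.5% a shared locus and 13.5% a Veh-only locus, and within 1 kb of a TSS the values were 10%, 11% and 5.06%. Of the pairs of a gene and a locus at all genes 43.4% were KLA-only and 11.8% Veh-only. Every list below had a higher share of genes with a KLA-only or shared locus than all genes did, and the class shares of their loci are therefore given with the counts. These shares are over pairs of a gene and a locus, so a locus near 2 genes counts for each, and genes with many loci weigh more. With each locus counted once, 43.5% of the loci at all genes were KLA-only.

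The interferon response genes and the cytokines had the highest shares of KLA-only loci among the lists. In the interferon response list 19 of 20 measured genes had a KLA-only locus, and 78.1% of their 64 loci were KLA-only. Of the cytokines, 21 of 21 had a KLA-only locus, and 60% of 95 pairs, or 60.2% of 88 distinct loci, were KLA-only. Of the NF-kB subunits and inhibitors, 13 of 14 had a KLA-only locus and 52.7% of 93 loci were KLA-only. Without Nfkb1, the gene of that list with the most loci, 45.9% of 74 were, close to the share of all genes. A Veh-only locus lay at 2 of 20 interferon response genes (10%) and 3 of 21 cytokine genes (14.3%), beside 13.5% of all genes. The 3 cytokine genes, Tnf, Lta and Ltb, share 1 such locus. Every gene of both lists had an ATF3 locus, against 9980 of 21911 genes in all, so these shares of genes are not alike. Of the pairs of a gene and a locus, 3.12% at interferon response genes and 3.16% at cytokines were Veh-only, against 11.8% at all genes.

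In the interferon response list, Gbp2, which encodes a guanylate-binding protein, had its strongest locus 43 bp upstream of the TSS at chr3:142620406-142620713, with a percentile of 39.3 in Veh and 95.6 in KLA. Rsad2, which encodes the antiviral protein viperin, had 4 KLA-only and 3 shared loci, and its strongest went from percentile 72.2 to 97. Oasl1 went from 37.8 to 87.9 at its strongest locus, and Isg15, a ubiquitin-like modifier, had a KLA-only locus 0.659 kb upstream of the TSS of its neighbour AW011738.

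Of the named cytokines, Il1rn, the antagonist of the IL-1 receptor, had a shared locus at percentile 97.8 in Veh and 99.7 in KLA, and Il1b went from 92.4 to 98.5. Il23a went from 67.9 to 97.9, and Il27 had 7 KLA-only loci and 1 shared locus within 5 kb. Among the NF-kB genes the promoter of Nfkbia had a KLA-only locus at chr12:55492666-55492874 with a KLA count of 215 and the NF-kB motif, while 2 Veh-only loci lay within 5 kb of that gene, 1 of them also within 1 kb of a TSS. Rel, an NF-kB subunit, had a locus with the NF-kB motif that went from percentile 76.7 to 98. Tnfaip3 and Tnip1 had their strongest loci at percentiles 97.1 and 88.2 in Veh and at 97.3 and 97.7 in KLA.

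Of the chemokines, 10 of 17 had a KLA-only locus, 13 a shared locus and 3 a Veh-only locus, and 45.5% of their 55 loci were KLA-only, near the value of all genes. The promoter locus of Cxcl10, which holds the TRE, NF-kB and interferon response motifs, went from percentile 40.7 to 96.9. Those of Ccl3 and Ccl4 were high in both treatments (94.2 and 85.7 in Veh, 96.6 and 98.5 in KLA). Ccl5 had 6 KLA-only loci and no other. Immediate-early regulators had a KLA-only locus at 15 of 24 genes and a shared one at 21 of 24, with 35.7% of 70 loci KLA-only. At Ier5, Klf2 and Zfp36 the strongest locus was above percentile 95 in both treatments. MAPK phosphatases had a KLA-only locus at 8 of 9 genes, with 45.7% of 46 loci KLA-only. Without Dusp1, the gene of that list with the most loci, 55.6% of 27 were KLA-only. The strongest locus at Dusp7 went from 92.4 to 99.8, and that at Dusp4 from 56.7 to 77.8. The strongest locus in the annotated span of Dusp1 was nearest to the TSS of its neighbour Ergic1, 26 kb away.

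At genes of the ATF and stress response, Veh-only loci lay within 5 kb of 9 of 19 genes and within 1 kb of a TSS of 7 of 19, and 33.3% of their 72 loci were KLA-only and 16.7% Veh-only. The 7 genes were Atf4, Atf5, Ddit3, Asns, Txnrd1, Gclm and Vegfa, which are named here after their values were seen. Atf4 and Ddit3 encode factors of the integrated stress response and Asns makes asparagine. At Atf4, Asns, Gclm and Vegfa the Veh-only locus was the only ATF3 locus within 5 kb. The ranks of these loci and their peaks in BALB/cJ and the knockout are not given here. Of the whole Veh-only class, 46.3% had neither BALB/cJ peak. Other genes of the list had strong shared loci. The promoter of Slc7a11, the cystine transporter, held the composite and stood at percentile 99.2 in Veh and 97.6 in KLA. Gadd45a, a stress-induced growth arrest gene, had a locus with the composite in its 3′ UTR at 99.5 and 97.5. Atf3 had 7 shared loci and 1 KLA-only locus, and its strongest went from 82.9 to 99.3.

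In the lists of resting macrophage functions shared loci were the largest class, with 50.7% at lineage, 57.5% at lysosomal and 50.6% at lipid genes. This was not particular to them. Shared loci were also the largest class at all genes (44.8%) and at immediate-early regulators (55.7%). At MAPK phosphatases they were the largest class (52.2%) only with Dusp1, without which 55.6% of 27 loci were KLA-only. A shared locus lay at 16 of 17 lineage genes, 17 of 17 lysosomal genes and 15 of 17 genes of lipid handling, and 38.8%, 36.2% and 36.1% of the loci were KLA-only. Veh-only loci lay at 6 of 17, 3 of 17 and 8 of 17 genes, beside 13.5% of all genes. Veh-only loci made up 10.4%, 6.25% and 13.3% of the loci of these lists, against 11.8% at all genes. Runx1, a lineage factor, had 7 KLA-only, 13 shared and 7 Veh-only loci, and its strongest stood at percentile 99 in Veh and 99.3 in KLA. Cd68 and Mitf stood at 93.1 and 94.1 in Veh and at 97.3 and 96.2 in KLA. At lysosomal genes, Ctsb, a cathepsin, stood at 95.6 and 98.6, and Gpnmb rose from 78.5 to 96.3. Of the lipid genes, Cd36, a scavenger receptor, and Abca1, a cholesterol exporter, were above percentile 97 in both treatments, Fabp4 rose from 62 to 92.1, and the strongest locus at Lpl was KLA-only, with a KLA count of 217 and both the TRE and the NF-kB motif.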

How the data were processed

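The authors mapped ChIP-seq reads to mm10 with Bowtie2 (BALB/cJ reads to a custom genome, shifted back to mm10), called peaks against input with HOMER and kept peaks with an IDR below 0.05. Each deposited list gives a whole-number count per peak, not scaled to library size, and the IDR score, capped at 1000. How the counts of replicates were combined is not given in the sources used here, and each treatment has 1 list, so no test between treatments was run. Of the lists, 20 were used.

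Loci were formed from peaks that overlapped by at least 1 bp, and ranks were taken within each list. Factors were assigned by an overlap of at least 1 bp, motifs were searched in the central 200 bp of the GRCm38 sequence, and TSSs and genes came from the GENCODE vM21 basic annotation. Positions are printed as the lists give them, and whether their starts count from 0 or 1 is not stated. Comparisons at equal rank were standardised over deciles of the count rank with at least 20 loci of each class. Loci off the main chromosomes had no position or motif. Named were the 10 KLA-only and 10 Veh-only loci with the highest count, the 5 shared loci with the largest rise and the 5 with the largest fall in rank that were in the strongest 50% of at least 1 list, the 5 genes nearest to the most loci of each class, and up to 4 genes per list with the highest count. The members, lists and motifs were chosen with earlier results of these data known. Scripts ran in Python 3.11.15 with pandas 2.3.3, numpy 2.4.6, scipy 1.17.1, statsmodels 0.14.6 and pysam 0.24.0, and were tested on simulated data.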

Additional observations from a re-analysis of the deposited data

Results flagged for a closer look

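The difference in promoter share between KLA-only and Veh-only loci had opposite signs in the 2 strains. KLA-only minus Veh-only was -10.8 points in C57BL/6 (-12.2 to -9.48) and 2.55 points in BALB/cJ (1.25 to 3.79). The GC box, a motif of promoters, was flagged for the same reason, with -4.27 points in C57BL/6 (-5.09 to -3.52) and 1.09 points in BALB/cJ (0.387 to 1.7). The difference between the strains was not itself tested, and each strain has 1 list per treatment. The BALB/cJ lists gave 20989 KLA-only, 15811 shared and 3684 Veh-only loci.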

How the results depend on the processing

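The class sizes followed the lists. Lists of equal length gave 7805 KLA-only and 7809 Veh-only loci, nearly the same number by construction, which says nothing of gain against loss. The strongest 50% of each list gave 8867 KLA-only, 9498 shared and 2079 Veh-only loci, an IDR below 0.01 gave 2495 Veh-only loci, and the strongest 50% of the own list against the whole other list gave 5112 and 589. Of 18 differences KLA-only minus Veh-only, 14 kept their direction and call under every alternative run, as did the 3 differences in other ATF3 lists. The promoter difference was -1.7 points in loci of the same class in BALB/cJ. The GC box difference was -0.622 points in those loci and -0.0899 points over 3 kb from a TSS. PU.1 in KLA passed 0 with 4.13 points (equal length), 7.77 (strongest 50%), 5.05 (IDR below 0.01) and 6.53 (same class in BALB/cJ). CEBPα in KLA had no stable direction, with -0.377 points (centres within 100 bp), 0.0241 (50% reciprocal overlap), -6.44 (strongest 50%), -2.2 (IDR below 0.01), -2.21 (same class in BALB/cJ), -2.04 (equal rank) and 1.16 (over 3 kb from a TSS).

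Against shared loci, KLA-only loci turned to 1.14 (strongest 50%), 1.42 (same class in BALB/cJ) and 0.889 points (within 3 kb of a TSS) for promoters, to 8.1 for the TRE and 3.29 for Fos in KLA at equal rank, and to 0.121 for the GC box over 3 kb from a TSS. Veh-only loci minus shared loci turned to 3.1 (strongest 50%), 1.94 (IDR below 0.01), 3.95 (same class in BALB/cJ), 2.47 (equal rank) and 1.12 points (central 100 bp) for the CEBP motif, to 2.15 for the PU.1 motif over 3 kb from a TSS, and to 2.91 (strongest 50%) and 6.52 (equal rank) for CEBPα in Veh. Within 1 kb of a TSS the share of KLA-only loci was 26.1% at macrophage lineage genes (6 of 23) and 23.5% at lysosomal genes (4 of 17). At all genes the share within 1 kb of a TSS was 39%. The cause was not tested. The settings with no neighbouring peak within 500 bp, with the same class in BALB/cJ, without the gene with the most loci of a list and with each locus counted once were chosen after seeing the data. No paired analysis was possible because each treatment has 1 combined list without replicate numbers, and for the same reason no replicate could be left out.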
